A study of Mus musculus with 6 samples.

Results

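Endothelial cell markers were read as 10 genes in abdominal WAT, the white fat of the belly, of female mice: Pecam1, Cdh5, Esam, Cldn5, Tek, Tie1, Eng, Robo4, Emcn and Egfl7. They were taken by name from the array files with every probe that carries the symbol or an older one. They were covered by 13 of the 41174 non-control probes. All 13 passed the filter, which asked for a signal well above background on 3 arrays or more, so that all 10 genes are among the 21067 genes tested. Esam stood in the files under its older symbol Esam1. The hNAG-1 mice carried a transgene for human NAG-1 (GDF15), a secreted member of the TGF-beta superfamily, and came from 1 transgenic line. The WT mice carried no transgene. Both genotypes were C57/BL6 females of 30 wk, with 3 arrays each, and each array held RNA pooled from 2 mice, 6 mice per genotype in all. The promoter that drives the transgene and the diet of these mice are not given in the sources used here. The methods describe expression of the transgene in most tissues, WAT included, so endothelial cells are not its only possible site. Whole fat was extracted, therefore fewer endothelial cells and less RNA per endothelial cell cannot be told apart.

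Endothelial cells line every blood vessel, and in fat a dense capillary bed brings fatty acids and hormones to the adipocytes and grows or thins out with the depot. The markers fall into working groups. Pecam1, Cdh5, Esam and Cldn5 hold neighbouring endothelial cells together, Tek and Tie1 form the angiopoietin receptor system, Eng is a co-receptor for ligands of the TGF-beta superfamily, Robo4 is a guidance receptor that steadies vessels, Emcn is a surface sialomucin of capillaries and veins, and Egfl7 is a secreted protein bound to the vessel matrix. Some of them are also made elsewhere: Pecam1 and Esam by platelets, Pecam1 by leukocytes, and Eng by macrophages and stromal cells.

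None of the 10 genes passed the adjusted threshold of 0.05 between hNAG-1 and WT fat, and none of all genes tested did (0%, lowest adjusted p = 0.168, limma with Benjamini-Hochberg adjustment). On the log2 scale, with each array set to its own 75th percentile, 8 of the 10 had a fold change below 0, as did 41% of all genes. The median of the members was -0.17, and that of all genes was 0.06. Eng, Pecam1, Robo4, Tie1 and Tek had fold changes from -0.45 to -0.23, Cldn5, Esam and Cdh5 from -0.12 to -0.09, and Egfl7 and Emcn were at 0.0033 and 0.10. No member had an unadjusted p under 0.05 in either direction. Of all genes, 4.08% were lower and 8.45% higher in hNAG-1 fat at that level, so none among 10 genes is no contrast. Every array of hNAG-1 fat was below every array of WT fat in 2 of the 10, Eng and Tek, which happened in 6.57% of all genes. The median of the members rested on single arrays: it was -0.05 without WT replicate 3 and -0.04 without hNAG-1 replicate 1. The median of all genes was 0.05 and 0.10 in those fits.

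**Figure D1:**
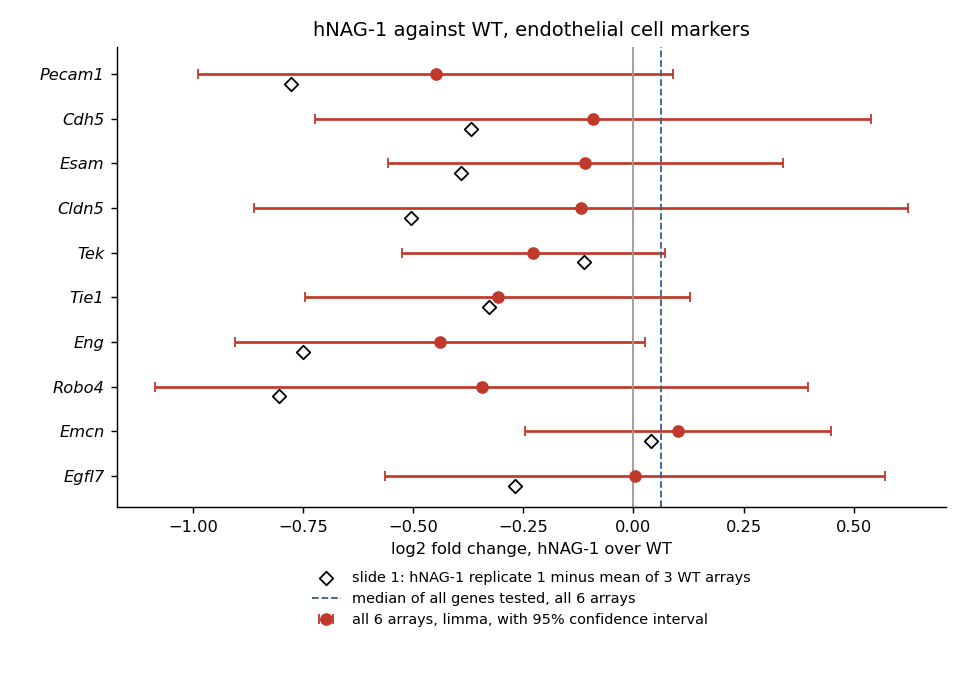
Log2 fold change of hNAG-1 over WT fat (x axis) for each of the 10 endothelial cell markers (rows). Circles with bars give the limma estimate from all 6 arrays with its 95% confidence interval, diamonds the difference on the slide that held both genotypes, and the dashed line the median of all genes. Every interval covers 0, and 8 of the 10 circles lie left of it.

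Pecam1 (CD31, probe A_51_P400868) is a homophilic adhesion molecule of the endothelial junction. Its processed signal, which is the background-subtracted brightness in arbitrary linear units before any scaling between arrays, was 527, 563 and 594 on the hNAG-1 arrays and 830, 1019 and 1140 on the WT arrays. Before scaling the genotypes did not overlap. After scaling, its log2 level relative to the WT mean was -0.78, -0.41 and -0.16 on the hNAG-1 arrays and -0.30, 0.09 and 0.21 on the WT arrays, so that hNAG-1 replicate 3 lay above WT replicate 1. The fold change was -0.45 ± 0.22 (SE, n = 3 pools each) with a 95% confidence interval from -0.99 to 0.09, a ratio of 0.733 and a limma adjusted p = 0.460. Without hNAG-1 replicate 1 the fold change was -0.28.

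This probe was printed on 10 spots of every array, which gives the measurement error within an array. The spots ranged from 501 to 577 in hNAG-1 replicate 1, from 511 to 609 in replicate 2 and from 566 to 621 in replicate 3. In WT fat they ranged from 791 to 887, from 989 to 1069 and from 1067 to 1228. The coefficient of variation over spots was between 2.48% and 5.42% per array, and the lowest of all WT spots exceeded the highest of all hNAG-1 spots. These signals are unscaled, and the whole hNAG-1 arrays were dimmer than the WT arrays: without scaling, 27% of all genes had every hNAG-1 array below every WT array. After scaling, as given above, hNAG-1 replicate 3 lay above WT replicate 1. The spots measure one RNA pool again and are no replicates of a genotype.

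**Figure D2:**
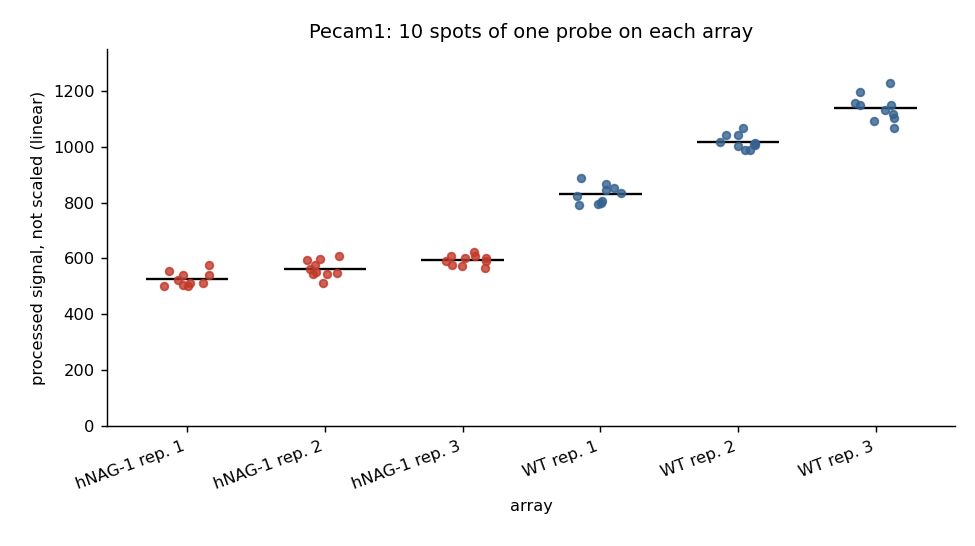
Processed signal of Pecam1 (y axis, linear, before scaling between arrays) at each of the 10 spots of its probe on each array (x axis), with the array mean as a bar. Spots on the hNAG-1 arrays lie between 501 and 621 and those on the WT arrays between 791 and 1228. After scaling, the genotypes overlapped, with hNAG-1 replicate 3 at -0.16 and WT replicate 1 at -0.30 (log2, relative to the WT mean).

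The files held a second probe named Pecam1, A_52_P349070, designed on a cDNA clone that the array annotation describes as a product of another gene, a disintegrin and metalloprotease (Adam28), so its gene is uncertain. The 60 bases of A_51_P400868 were mapped by the array design to an interval of 1854 positions, chr11:106790116-106791969 of mm7, so that its parts lie apart in the genome, and A_52_P349070 lies inside that interval at chr11:106790785-106790844. Both are shown, in lower case throughout with no base marked, because they carry 1 gene name and lie at different places.
A_51_P400868: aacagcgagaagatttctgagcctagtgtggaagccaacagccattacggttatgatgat
A_52_P349070: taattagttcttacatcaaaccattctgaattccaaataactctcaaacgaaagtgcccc
The processed signal of A_52_P349070 was 6.61, 5.66 and 14.2 on the hNAG-1 arrays and 13.7, 17.3 and 18.9 on the WT arrays. It was well above background on 1 of the 3 hNAG-1 arrays and on all 3 WT arrays. Its fold change was -0.66 ± 0.45 (SE, limma over probes, adjusted p = 0.590). It passed the filter mainly through the WT arrays and its gene is uncertain, so this value is a description and says nothing of the other probe.

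Cdh5 encodes VE-cadherin, the adhesive backbone of endothelial junctions. Its brighter probe, A_52_P248604 (chr8:102744763-102744822 of mm7), read 3289, 3148 and 3714 on the hNAG-1 arrays and 3983, 4021 and 6259 on the WT arrays. Relative to the WT mean the scaled log2 level was -0.37, -0.16 and 0.26 in hNAG-1 fat and -0.27, -0.17 and 0.44 in WT fat. The genotypes overlapped, WT replicate 3 was the highest array and hNAG-1 replicate 1 the lowest. The fold change was -0.09 ± 0.26 (SE; 95% confidence interval -0.72 to 0.54; limma adjusted p = 0.90). A second probe of the same transcript, 660 bases away, read 609, 671 and 683 in hNAG-1 fat and 808, 1074 and 1408 in WT fat and had a fold change of -0.34 ± 0.27 (SE, adjusted p = 0.637).

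Esam, an immunoglobulin-like adhesion molecule of endothelial tight junctions, read 2787, 2881 and 2945 on the hNAG-1 arrays and 3885, 3568 and 4611 on the WT arrays. Scaled, Esam stood at -0.39, -0.07 and 0.14 in hNAG-1 fat and at -0.09, -0.12 and 0.21 in WT fat, and the ranges overlapped. Its fold change was -0.11 ± 0.18 (SE, limma adjusted p = 0.825). Cldn5, the main claudin of endothelial tight junctions, read 9909, 11113 and 11988 in hNAG-1 fat and 13885, 11791 and 22252 in WT fat. Scaled, it stood at -0.51, -0.07 and 0.22 on the hNAG-1 arrays and at -0.19, -0.34 and 0.54 on the WT arrays. WT replicate 3 was again the highest and hNAG-1 replicate 1 the lowest of the 6. The fold change of Cldn5 was -0.12 ± 0.30 (SE, 95% confidence interval -0.86 to 0.62, limma adjusted p = 0.888).

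Tek (Tie2), the receptor for the angiopoietins, was measured by A_51_P130374 (chr4:94266776-94266835 of mm7) at 795, 599 and 505 on the hNAG-1 arrays and 949, 855 and 1024 on the WT arrays. Scaled and relative to the WT mean, the values were -0.11, -0.25 and -0.32 in hNAG-1 fat and -0.03, -0.10 and 0.13 in WT fat. Every hNAG-1 array was below every WT array, although hNAG-1 replicate 1 and WT replicate 2 were nearly level. The fold change was -0.23 ± 0.12 (SE; 95% confidence interval -0.53 to 0.07; limma adjusted p = 0.491). A second probe, designed on a cDNA clone and placed 132374 bases away in the gene's region, gave 138, 124 and 122 in hNAG-1 fat and 161, 161 and 175 in WT fat. Its fold change was -0.01 ± 0.12 (SE, adjusted p = 0.988), so the 2 probes of Tek gave different sizes, and the sign of the second turned under several settings.

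Tie1, the orphan partner receptor of Tek, read 740, 643 and 539 on the hNAG-1 arrays and 820, 1094 and 1169 on the WT arrays. Scaled, the hNAG-1 arrays lay close together at -0.33, -0.26 and -0.34, whereas the WT arrays were at -0.36, 0.15 and 0.21. WT replicate 1 was thus at the level of the hNAG-1 arrays. The fold change was -0.31 ± 0.18 (SE; 95% confidence interval -0.74 to 0.13; limma adjusted p = 0.522). Without one WT array it was -0.23 (replicate 2 left out), -0.20 (replicate 3) or -0.49 (replicate 1), and in the last case its unadjusted p of 0.0119 was under 0.05, while the p adjusted over all genes was 0.555 (limma).

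Eng (endoglin), a co-receptor that favours signalling through the endothelial receptor ALK1, read 763, 798 and 847 on the hNAG-1 arrays and 1377, 1552 and 1299 on the WT arrays. Scaled, it stood at -0.75, -0.42 and -0.15 in hNAG-1 fat and at -0.08, 0.18 and -0.11 in WT fat. The genotypes did not overlap either way, with a gap of a few hundredths between hNAG-1 replicate 3 and WT replicate 3 after scaling. Eng had the smallest adjusted p of the members. Its fold change was -0.44 ± 0.19 (SE; 95% confidence interval -0.91 to 0.03), a ratio of 0.737, with a limma adjusted p = 0.414. Without hNAG-1 replicate 1 the fold change was -0.28. It was the only member not highest on WT replicate 3, its highest array being WT replicate 2.

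Robo4, a roundabout receptor made largely by endothelium, read 8365, 10217 and 10814 on the hNAG-1 arrays and 14788, 12424 and 22188 on the WT arrays. Scaled, it stood at -0.80, -0.25 and 0.02 in hNAG-1 fat and at -0.16, -0.32 and 0.48 in WT fat. Only hNAG-1 replicate 1 lay outside the WT range. The fold change was -0.34 ± 0.30 (SE; 95% confidence interval -1.09 to 0.40; limma adjusted p = 0.663). Without WT replicate 3 it was -0.10, and without hNAG-1 replicate 1 it was -0.12.

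Emcn (endomucin), a sialomucin that keeps leukocytes from attaching, read 4763, 4090 and 3819 on the hNAG-1 arrays and 4949, 4422 and 5938 on the WT arrays. Scaled, the hNAG-1 arrays were at 0.04, 0.09 and 0.17 and lay within the WT values of -0.08, -0.15 and 0.23. Its fold change was 0.10 ± 0.14 (SE; 95% confidence interval -0.25 to 0.45; limma adjusted p = 0.788). Egfl7, which limits stiffening of the vessel matrix and is the host gene of an endothelial miRNA, read 7264, 7747 and 7305 on the hNAG-1 arrays and 7852, 8968 and 12489 on the WT arrays. Scaled, it was at -0.27, 0.09 and 0.19 in hNAG-1 fat and -0.33, -0.05 and 0.39 in WT fat. The fold change was 0.0033 ± 0.23 (SE; 95% confidence interval -0.56 to 0.57; limma adjusted p = 0.997), which as a ratio is an interval from 0.677 to 1.48.

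**Figure D3:**
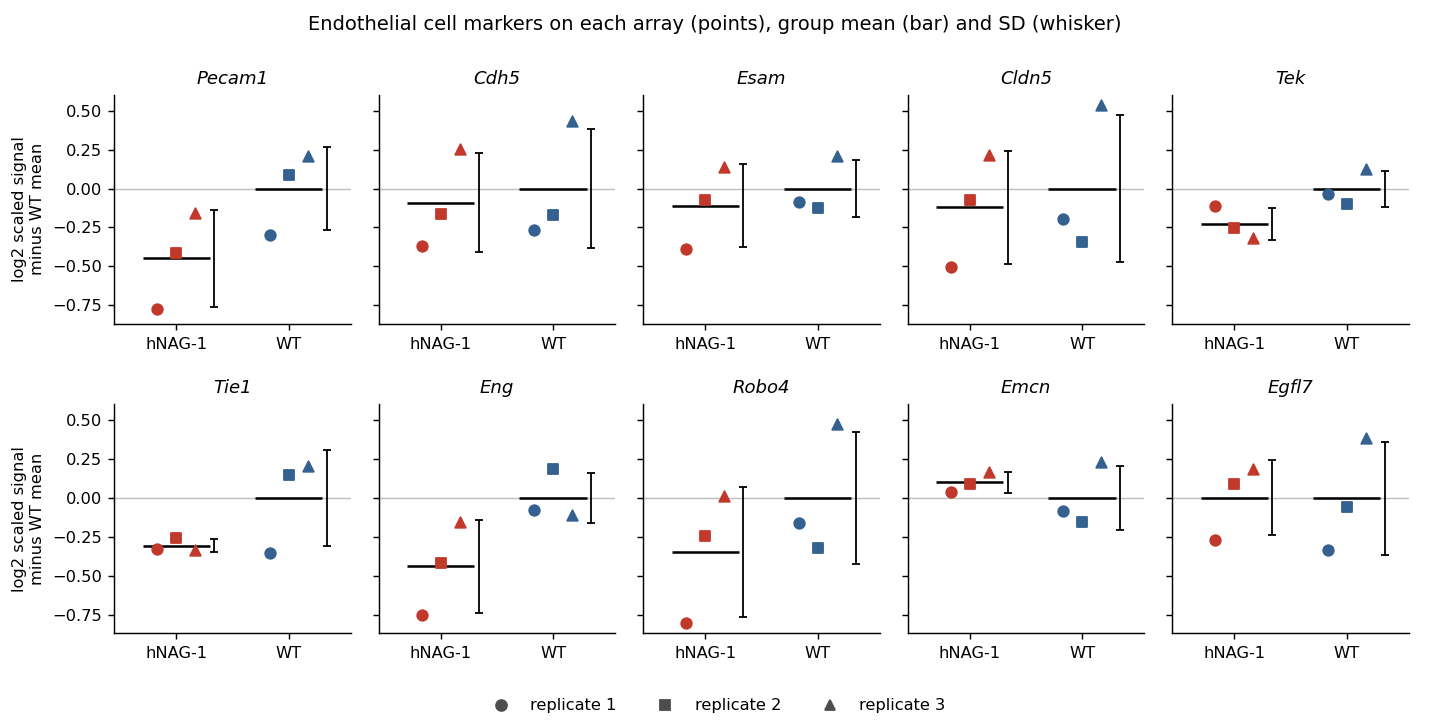
Scaled log2 signal minus the WT mean (y axis) of each endothelial cell marker on the 3 hNAG-1 arrays and the 3 WT arrays (x axis), with point shapes for the replicate, bars for group means and whiskers for the SD. Eng and Tek are the panels in which the genotypes do not overlap, and WT replicate 3 (triangle) tops 9 of the 10 panels.

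The members shared much of their order of arrays. WT replicate 3 was the highest of the 6 arrays in 9 of the 10 genes, against 14.6% of all genes. hNAG-1 replicate 1 was the lowest in 6 of the 10, Pecam1, Cdh5, Esam, Cldn5, Eng and Robo4, against 20.6% of all genes. The mean of the members, centred over the 6 arrays, was -0.33, -0.07 and 0.10 on the hNAG-1 arrays and -0.09, 0.01 and 0.37 on the WT arrays. The range of the WT arrays within one gene was 0.23 for Tek and 0.29 for Eng, and between 0.33 and 0.88 in the other 8, in each of which it was larger than the size of the fold change. The 5 genes outside the list whose centred levels lay nearest to that mean profile over the 6 arrays were Palmd, Samd10, F2r, Sox13 and BC006779, with mean absolute differences from 0.026 to 0.041 (log2). F2r encodes the thrombin receptor PAR1. The likeness describes 6 arrays and was picked from all genes tested, so it carries no p.

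The letters before the start of transcription were read for motifs known to bind factors of endothelial genes: CAGGAAG and CCGGAAG for the ETS family and AGATAAG for GATA factors, on both strands, in windows of 300 bases from RefSeq (GRCm38.p6) that end 50 bases past the start. The first pair share the letters GGAAG and cannot lie at the same place on one strand. Windows were found for 7 of the 10 genes, with 9 windows in all. Pecam1, Cdh5 and Esam were not among them. CAGGAAG occurred in 4 of the 9 windows, those of 3 genes, Robo4, Egfl7 and Emcn, and in 13.3% of all 32851 windows. CCGGAAG occurred in none of the members' windows and in 8.86% of all, and AGATAAG in that of Tek and in 3.04% of all. The windows of Robo4 (chr9:37401722-37402021, plus strand) and Egfl7 (chr2:26580833-26581132, plus strand) are printed because the same motif stands in both while their fold changes were -0.34 and 0.0033. Capitals mark CAGGAAG or its reverse complement, which begins 50 bases before the start in Robo4 and 90 and 49 bases before it in Egfl7.
Robo4: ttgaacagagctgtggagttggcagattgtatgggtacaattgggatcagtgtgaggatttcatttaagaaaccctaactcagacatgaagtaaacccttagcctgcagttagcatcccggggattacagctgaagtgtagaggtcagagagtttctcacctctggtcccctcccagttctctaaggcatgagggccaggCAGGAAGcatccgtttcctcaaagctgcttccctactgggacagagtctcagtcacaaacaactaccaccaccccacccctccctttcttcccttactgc
Egfl7: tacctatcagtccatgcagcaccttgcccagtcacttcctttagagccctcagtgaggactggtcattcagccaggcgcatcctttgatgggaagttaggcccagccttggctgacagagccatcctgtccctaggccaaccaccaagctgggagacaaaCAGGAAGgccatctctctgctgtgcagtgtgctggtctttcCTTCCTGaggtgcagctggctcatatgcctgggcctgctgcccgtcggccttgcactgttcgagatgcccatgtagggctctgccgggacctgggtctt
A match is a run of letters and was not tested as a binding site.

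The 6 arrays lay on 2 slides, the first with all 3 WT arrays and hNAG-1 replicate 1, the second with hNAG-1 replicates 2 and 3, and scans followed slides. On the slide with both genotypes, 9 of the 10 members were below 0 in hNAG-1 fat, against 53.4% of all genes, with a median of -0.38. There Robo4 was -0.80, Pecam1 -0.78, Eng -0.75, Cldn5 -0.51, Esam -0.39, Cdh5 -0.37, Tie1 -0.33, Egfl7 -0.27 and Tek -0.11, and Emcn was 0.04. These values set 1 hNAG-1 array against 3 WT arrays, and the lone array was taken to vary as the others did. Pecam1 and Eng had unadjusted p of 0.0498 and 0.0283 there (limma; 3.48% of all genes were lower at that level), and the lowest adjusted p of the members was 0.770. Both hNAG-1 arrays of the second slide had higher scaled values than hNAG-1 replicate 1 in 8 of the 10 members, the exceptions being Tek, lower on both, and Tie1, lower on replicate 3. The difference between slides within hNAG-1 fat cannot be told apart from that between pools.

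The distance between the genotypes depended on how the arrays were scaled. The 75th percentile of the processed signal was 858, 712 and 629 on the hNAG-1 arrays and 970, 913 and 935 on the WT arrays, so that the whole hNAG-1 arrays were dimmer. Without scaling, all 10 members were below 0 in hNAG-1 fat, as were 81.3% of all genes, and the median of the members was -0.54 beside -0.31 for all genes. In 8 of the 10, all but Emcn and Cldn5, every hNAG-1 array was then below every WT array (27% of all genes), and Pecam1, Tek, Tie1, Eng, Esam and Robo4 had an unadjusted p under 0.05 (18.8% of all genes were lower at that level). None of them passed after adjustment, the lowest adjusted p being 0.172. The percentile moves all genes of an array by the same amount, so the members' median relative to that of all genes is by construction the same with it and without scaling, -0.24. With quantile normalization 9 of the 10 were below 0 (47.5% of all genes), with a median of -0.22 beside 0.02 for all genes. With normexp background correction 5 of the 10 were below 0, Pecam1, Eng, Tek, Tie1 and Robo4 (64.4% of all genes), and the members' median of -0.06 lay above the median of all genes, which was -0.19. On WT replicate 2 that correction put the median of all genes at 0.47 and that of the members at -0.49, relative to the WT mean. Under each of these 4 settings Pecam1, Eng, Tek, Tie1 and Robo4 were below 0. With normexp the median of all genes was itself below 0. Relative to it Pecam1 was at -0.17, Eng at -0.15, Tek at -0.05, Tie1 at -0.04 and Robo4 at 0.037. Cdh5, Esam and Cldn5 were above 0 with normexp alone. Emcn was below 0 without scaling alone, and relative to the median of all genes it stayed at 0.037 there. Egfl7 was below 0 with quantile normalization (-0.071) and without scaling, and relative to the median of all genes it was at -0.06 both with the percentile and without scaling.

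**Figure D4:**
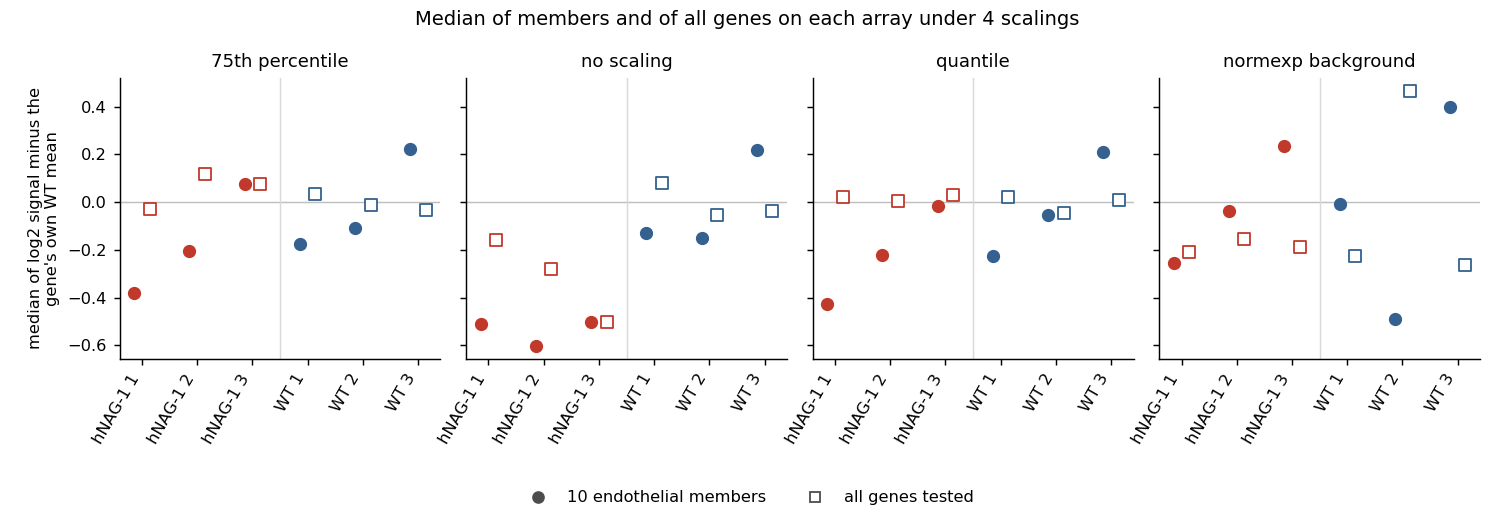
Median over the 10 endothelial cell markers (filled circles) and over all genes (open squares) of the log2 signal minus each gene's WT mean (y axis), on the 3 hNAG-1 and the 3 WT arrays (x axis), under 4 scalings. With the 75th percentile, no scaling and quantile normalization, the members lie below all genes on replicates 1 and 2 of both genotypes. On hNAG-1 replicate 3 they lie close to all genes, and on WT replicate 3 above them. With normexp WT replicate 2 stands apart.

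A further list of 25 endothelial genes was measured in full. In it 19 of the 25 were below 0, the median was -0.17, and none passed the adjusted threshold. As for the members, the median rested on single arrays: it was 0.03 without WT replicate 3 and -0.02 without hNAG-1 replicate 1. At an unadjusted p under 0.05, 4 were lower and 1 was higher in hNAG-1 fat, against 4.08% and 8.45% of all genes. Plvap, the protein of the diaphragms of fenestrated capillaries, stood at a scaled log2 level of 1.22, 1.54 and 1.52 on the hNAG-1 arrays and 2.13, 2.19 and 1.83 on the WT arrays, with no overlap (fold change -0.62 ± 0.16, SE, limma adjusted p = 0.259). Ecscr, an endothelial surface protein of cell migration, stood at 0.76, 1.16 and 1.46 in hNAG-1 fat and 2.08, 1.81 and 1.76 in WT fat, again without overlap (fold change -0.75 ± 0.21, adjusted p = 0.280). Vwf, the carrier of clotting factor that endothelium stores and secretes, stood at 2.29, 2.36 and 2.42 in hNAG-1 fat and 2.63, 2.70 and 2.85 in WT fat (fold change -0.37 ± 0.11, adjusted p = 0.307). The fourth lower gene, Sox17, a transcription factor of arterial endothelium named here after its value was seen, had a fold change of -0.67 ± 0.27 (adjusted p = 0.396), and its groups nearly met, with 0.02 on hNAG-1 replicate 3 and 0.05 on WT replicate 2. Nos3, the endothelial nitric oxide synthase, ran the other way: 2.37, 2.14 and 1.98 in hNAG-1 fat and 1.34, 1.54 and 1.89 in WT fat, with a fold change of 0.57 ± 0.19 (adjusted p = 0.336). Before scaling Nos3 overlapped, with processed signals of 4441, 3140 and 2479 in hNAG-1 fat and 2449, 2648 and 3476 in WT fat. Gpihbp1, which carries lipoprotein lipase across the capillary wall of fat and is named for that role after its value was seen, had a fold change of 0.0035 ± 0.20 (adjusted p = 0.996).

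Of the ligands and partners of Tek and Tie1, 7 of 8 listed genes were measured and Angpt2, the ligand that loosens vessels, was left out for a value missing on an array. The median was -0.33, with 5 below 0. Svep1, a matrix protein that binds Tie1, stood at 1.82, 1.82 and 2.32 on the hNAG-1 arrays and 2.81, 2.97 and 2.89 on the WT arrays. The groups did not overlap (fold change -0.90 ± 0.17, SE, limma adjusted p = 0.194). Grb14, an adaptor that binds receptor tyrosine kinases and is best known at the insulin receptor, had a fold change of -0.81 ± 0.21 (adjusted p = 0.260). Angpt1, the ligand that activates Tek and is made by mural and stromal cells, stood at -2.23, -1.92 and -2.52 in hNAG-1 fat and -2.75, -2.57 and -2.80 in WT fat (fold change 0.48 ± 0.18, adjusted p = 0.375). The processed signal of Angpt1 was dim and overlapped before scaling. It was 182, 188 and 110 on the hNAG-1 arrays and 144, 154 and 134 on the WT arrays. Angpt4, another ligand, had -0.42 ± 0.25 (adjusted p = 0.534). At an unadjusted p under 0.05, 2 of the 7 were lower and 1 was higher, against 4.08% and 8.45% of all genes. The median was -0.13 without hNAG-1 replicate 1.

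Of the junction partners 11 of 12 were measured, Ocln being the one that did not pass the filter, with a median of -0.13 and 8 below 0. Jup, the plakoglobin that ties VE-cadherin to the cytoskeleton, stood at -0.80, -0.83 and -0.39 in hNAG-1 fat and -0.20, 0.34 and 0.00034 in WT fat (fold change -0.72 ± 0.20, SE, limma adjusted p = 0.282). Ctnnd1, the p120 catenin that holds cadherins at the surface, had -0.63 ± 0.23 (adjusted p = 0.369), and Jam3, a junctional adhesion molecule, -0.32 ± 0.15 (adjusted p = 0.440). Ctnna1, the alpha-catenin, had 0.45 ± 0.17 (adjusted p = 0.382). Catenins serve all cells with cadherin junctions, so these probes do not read endothelium alone. Around endoglin and ALK1, all 12 genes were measured, the median was -0.11 with 8 below 0, and none had an unadjusted p under 0.05. Id1, a target of the pathway, had a fold change of -0.43 ± 0.18 (adjusted p = 0.412), Tgfbr3, the related co-receptor betaglycan, -0.41 ± 0.21 (adjusted p = 0.471), Acvrl1, which encodes ALK1 itself, -0.26 ± 0.16 (adjusted p = 0.536), and Smad4, the common mediator, -0.14 ± 0.12 (adjusted p = 0.651).

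Of the Slit ligands and Robo receptors 8 of 9 were measured, Robo3 not passing the filter, and 4 lay on each side of 0 with a median of -0.09. Slit3, a ligand made by mural and stromal cells, stood at 3.45, 3.48 and 3.53 on the hNAG-1 arrays and 4.09, 3.72 and 3.95 on the WT arrays. Again the groups did not overlap (fold change -0.43 ± 0.13, SE, limma adjusted p = 0.311). Robo1, a Slit receptor best known from axon guidance, had -0.38 ± 0.12 (adjusted p = 0.327), Slit1, another ligand, 0.60 ± 0.20 (adjusted p = 0.336) and Robo2, a further receptor, 1.32 ± 0.77 (adjusted p = 0.527). Robo1, Slit1 and Robo2 rested on dim signals, and Robo2 had a wide error. The processed signal of Slit1 was 61, 73 and 63 on the hNAG-1 arrays and 62, 59 and 47 on the WT arrays, so that it overlapped before scaling. Robo1 read 79 to 169 over the arrays and Robo2 3.9 to 23.

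Markers of other cells in the fat pad also differed between the pools, and their part in the values above was not tested. All 9 adipocyte markers were measured in this fat tissue, and 8 of the 9 were above 0 with a median of 0.21, which was -0.02 with quantile normalization and 0.39 with normexp. With the percentile scaling, their summed level, in units of each array's 75th percentile, was 1970 to 2376 on the hNAG-1 arrays and 1629 to 1948 on the WT arrays, with no overlap. Before scaling the 2 brightest of them overlapped between the genotypes. Fabp4 read 460956 to 476680 in hNAG-1 fat and 432508 to 489764 in WT fat. Cfd read 325116 to 344851 in hNAG-1 fat and 342029 to 361037 in WT fat. All 10 macrophage markers were below 0 (median -0.37, summed level 150 to 151 in hNAG-1 fat and 144 to 180 in WT fat). That sum rested mostly on Lyz2, the brightest of them, with a fold change of -0.05. Of 7 fibroblast markers 6 were below 0 (median -0.32, summed level 432 to 513 in hNAG-1 fat and 484 to 562 in WT fat). A large part of that sum was Dcn, the brightest of them and the one above 0 (fold change 0.15).

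Smooth muscle and pericytes wrap the vessels that endothelium lines. Of their 10 markers 8 were below 0, with a median of -0.68 and a summed level of 76.2 to 109 in hNAG-1 fat and 79.0 to 410 in WT fat. The list median was 0.30 and 0.41 on WT replicates 1 and 2 but -0.69 on WT replicate 3, relative to the WT mean. The genes of the list parted there. Acta2, Tagln, Myh11, Cnn1 and Des were lower on WT replicate 3 than on WT replicates 1 and 2. Pdgfrb, Rgs5, Kcnj8 and Abcc9 were highest of the 6 arrays on WT replicate 3, as were 9 of the 10 endothelial members. The fold changes of Pdgfrb, Rgs5, Kcnj8 and Abcc9 were -0.26, 0.06, -0.02 and -0.16. Cspg4 (NG2), a proteoglycan of pericytes, stood at 2.77, 2.74 and 2.50 on the hNAG-1 arrays and 1.60, 1.67 and 1.73 on the WT arrays (fold change 1.00 ± 0.12, SE, limma adjusted p = 0.168). It was singled out after its values were seen. Tagln and Acta2, the 2 markers of this list with the brightest probes, had fold changes of -1.09 ± 0.72 (adjusted p = 0.566) and -1.79 ± 0.66 (adjusted p = 0.370).

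All 5 measured lymphatic endothelial markers of 6 listed were below 0 (median -0.69, summed level 2.02 to 2.68 in hNAG-1 fat and 2.81 to 6.10 in WT fat), and Ccl21a was not measured here. Lyve1 and Pdpn had fold changes of -0.61 ± 0.37 (adjusted p = 0.535) and -0.43 ± 0.18 (adjusted p = 0.403). The lymphatic sum rested mostly on Lyve1, whose scaled values overlapped, with hNAG-1 replicate 3 above WT replicate 2. Pdpn did not overlap, with -1.705 on hNAG-1 replicate 1 and -1.690 on WT replicate 3. Flt4 and Prox1 were dim, with processed signals of 27 to 97 and 25 to 162 over the arrays. On WT replicate 3, Flt4 (-4.12) and Reln (-3.04) lay within the hNAG-1 range, and Prox1 (-4.72) lay below it. Platelet and megakaryocyte genes, which share Pecam1 and Esam with endothelium, had a median of -0.16 with 5 of 8 below 0 (summed level 12.0 to 14.1 in hNAG-1 fat and 14.0 to 18.7 in WT fat), and on WT replicate 3 their median was -0.42. That sum rested almost wholly on Pf4, with a processed signal of 8074 to 17088 over the arrays. All others of the list read 619 or less, down to 5.3, so most of the list was dim. T and B lymphocyte markers were above 0 in 9 of 9 (median 0.47), most so on hNAG-1 replicate 2. The median was 0.17 without that array, 0.0071 on the slide holding both genotypes and -0.26 with normexp. Their summed level was 2.41 to 4.78 in hNAG-1 fat and 1.76 to 2.82 in WT fat. Mesothelial markers had a median of -0.13 (summed level 54.3 to 70.9 in hNAG-1 fat and 74.2 to 74.9 in WT fat), and the 3 of 5 erythroid markers measured -0.03.

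**Figure D5:**
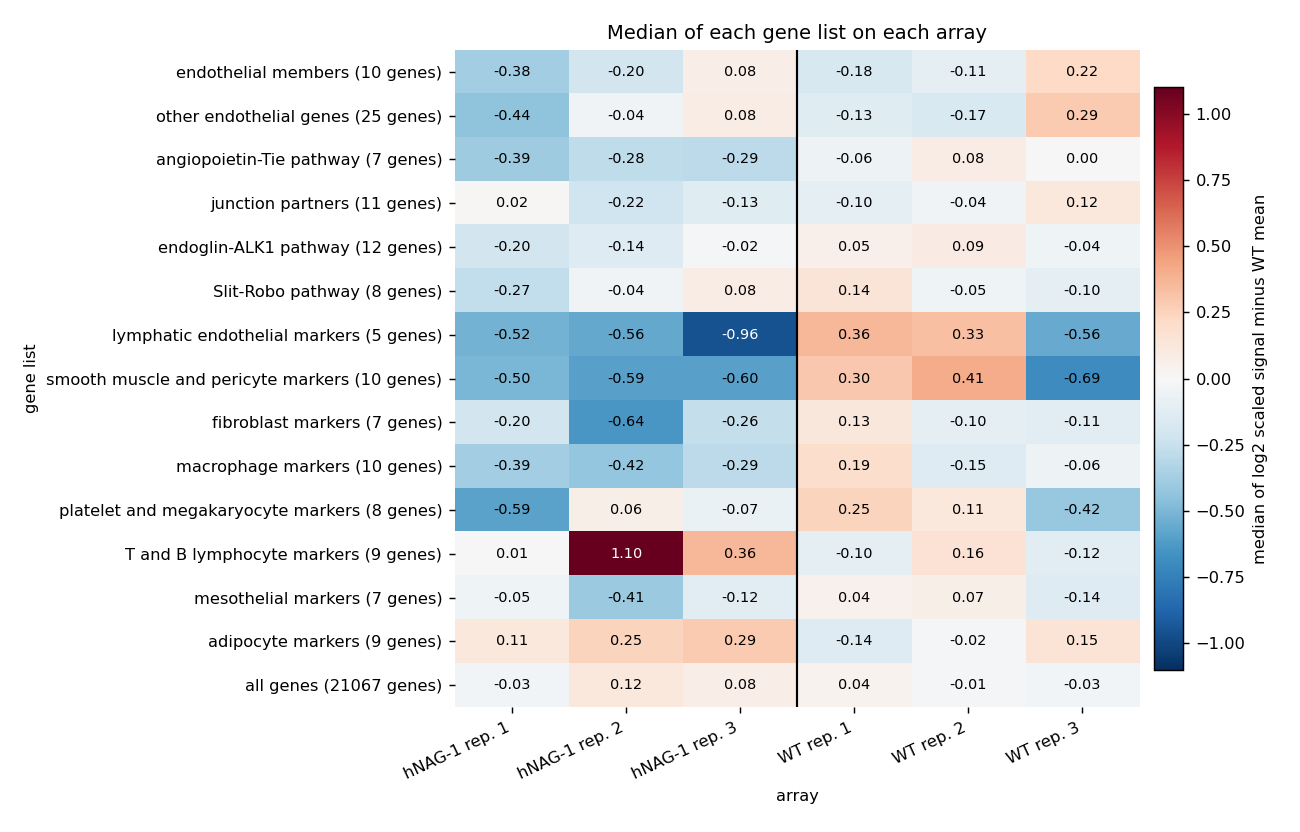
Median over each gene list (rows) of the scaled log2 signal minus the WT mean on the 3 hNAG-1 arrays (left of the line) and the 3 WT arrays (columns), as colour and number. Endothelial members and the other endothelial genes are lowest on hNAG-1 replicate 1 and highest on WT replicate 3. The medians of the smooth muscle and pericyte and the lymphatic lists are low on WT replicate 3. Of the smooth muscle and pericyte list, Pdgfrb, Rgs5, Kcnj8 and Abcc9 were highest on that array.

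Markers of neighbouring tissues differed between pools as well. Skeletal muscle markers were high on hNAG-1 replicate 2 and WT replicate 1 (median 1.83 and 1.28 relative to the WT mean; summed level 50.4 to 319 in hNAG-1 fat and 43.6 to 213 in WT fat), and exocrine pancreas markers on WT replicate 2 (median 4.32; summed level 1.42 to 1.64 in hNAG-1 fat and 0.998 to 17.7 in WT fat), with 4 of the 10 listed pancreas markers not measured here. On WT replicate 3 and hNAG-1 replicate 1, the ends of the endothelial profile, the muscle median was -1.29 and -0.96, lower than on the other arrays. The pancreas median there was -1.73 and -2.60. Whether such tissue bears on the endothelial values was not tested. Probes well above background made up 72.3% to 77.9% of each hNAG-1 array and 71.2% to 82.0% of each WT array, pairs of arrays correlated at 0.965 to 0.988, and no spot of a member was saturated. The transgene is human, and no probe of it was used here to check the genotype labels.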

How the data were processed

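Gene expression was measured on 6 single-colour Agilent arrays, although the methods of the study name another maker's array. Per array, the authors deposited Agilent Feature Extraction 9.5 output (version from the submitters' processing notes) with spot intensity, already background-subtracted and detrended within the array. They also deposited a table of intensity whose 45018 rows equal the scanner's processed signal within 0.1%, so nothing had been scaled between arrays.

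After removal of 1639 control spots and of spots marked as outliers, log2 intensity was averaged per probe, and the 75th percentile over probes was subtracted array by array. A probe was kept when 3 or more of the 6 arrays had it well above background (31469 of 41174 probes, after 33 with a missing value were dropped). Names came from a RefSeq gene table of GRCm38 through the accession (22951 probes), the symbol (6659) or a synonym (3109), and otherwise from the file (8455). Coordinates of probes follow the design file, on mm7. The brightest kept probe stood for a gene.

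limma 3.58.1 (R 4.3.3) was fitted over 21067 genes, and separately over kept probes, with two-sided moderated tests, Benjamini-Hochberg adjusted p-values and a threshold of 0.05. The scripts were tested on simulated data. Pools held different mice, so p-values measure pool-to-pool spread, limited by 3 pools per genotype. An exact permutation test of 3 against 3 cannot give a p below 0.10. Named genes were all members with every probe, up to 4 genes of each related list with the largest moderated t, up to 2 genes of other marker lists by signal, and the 5 genes nearest to the mean member profile. Sox17, Gpihbp1, Cspg4 and further genes of the smooth muscle and pericyte list and of the lymphatic list were added after their values were seen. The members and lists were chosen with earlier results of these data known.

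Alternatives changed the normalization (quantile), the background correction (normexp, offset 50), the filter (stricter or none), the summary per gene (mean of probes, or each probe), the variance model (trended and robust) and the design (slide or replicate number as a block, 1 slide alone), or left out an array. No scaling and a percentile taken over spots were added after seeing the data.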

Additional observations from a re-analysis of the deposited data

How the results depend on the processing

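No member passed the adjusted threshold under any alternative (lowest adjusted p 0.172), with 130 of all genes (0.617%) passing under trended and robust variances and none of them a member. Counts of members at an unadjusted p under 0.05 were 6 without scaling between arrays (18.8% of all genes were lower at that level), 2 with slide as a fixed block (3.79%) and 2 on the slide holding both genotypes (Pecam1 and Eng; 3.48%), 1 with trended and robust variances (Eng; 4.72%), and 0 to 2 with single arrays left out. The replicate numbers of the labels gave deviations that correlated at 0.098, 0.512 and 0.095 between the genotypes, so they were not taken to pair the pools; the replicate block gave 1 such member (Pecam1, p = 0.0250, adjusted p = 0.395; 4.38% of all genes) and changed no adjusted call. The count below 0 was 5 with normexp (64.4% of all genes) and 5 to 9 with single arrays left out. For both kinds of count, no share of all genes is given here with single arrays left out. The median of -0.17 became -0.54 without scaling and ran from -0.28 to -0.04 with single arrays left out. The median of all genes ran from 0.02 to 0.10 with single arrays left out.

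Pecam1, Tek, Tie1, Eng and Robo4 kept their sign in all 19 alternatives, but not their size. The 19 are not separate checks. Trended variances, the replicate block, the filters and the fit over probes left the fold changes of these genes at the main values. Slide as a fixed block gave the same fold changes as the slide holding both genotypes. With normexp Robo4 was at 0.037 relative to the median of all genes. With single arrays left out Pecam1 ran from -0.60 to -0.28, Tek from -0.28 to -0.16, Tie1 from -0.49 to -0.20, Eng from -0.58 to -0.28 and Robo4 from -0.52 to -0.10. Without scaling Emcn was at -0.27 and Egfl7 at -0.37, by the same shift as all genes (relative to their median 0.037 and -0.06, as with the percentile). Signs turned with normexp for Cdh5 (0.039), Esam (0.029) and Cldn5 (0.059), and for Egfl7 with quantile normalization (-0.071), slide as a fixed block (-0.27), slide as a random block (-0.010) and on the slide holding both genotypes (-0.27). With single arrays left out Egfl7 ran from -0.16 to 0.20, Cdh5 from -0.27 to 0.13, Cldn5 from -0.29 to 0.15, Esam from -0.23 to 0.032 and the second Tek probe from -0.080 to 0.061. That probe was also at 0.014 with quantile normalization and at 0.012 with the percentile over spots. Medians of other lists turned as well: without hNAG-1 replicate 1 for the Slit-Robo (0.010) and platelet (0.00084) lists, without WT replicate 2 for exocrine pancreas (0.13), without WT replicate 3 and hNAG-1 replicate 2 for skeletal muscle (-0.44 and -0.64), which was also at -0.96 on the slide holding both genotypes, where junction partners were at 0.015, and with normexp for mesothelium (0.029). The erythroid median ran from -0.12 to 0.10 with single arrays left out. The cause of these turns was not tested. Signal limits the second Pecam1 probe, which was well above background on 1 hNAG-1 array. Chosen after seeing the data were no scaling and the percentile over spots.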
